A study of Mus musculus with 6 samples.

Results

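Structural endothelial cells (ECs) of the mouse retina in oxygen-induced retinopathy (OIR) were taken as the cells that the deposited cell annotation calls ECs, leaving out the cells it calls Tip ECs and Proliferative ECs. They numbered 3335 of the 8944 annotated cells, against 1428 Tip ECs and 1162 Proliferative ECs. In OIR, pups are kept in high oxygen so that retinal capillaries are lost, and vessels regrow into ischemic tissue once the pups return to room air. All retinas came from OIR mice at postnatal day 14, and the groups compared were eNOS+/+ mice (C57BL/6) and eNOS-/- mice, a homozygous germline knockout of endothelial nitric oxide synthase (gene Nos3) backcrossed to C57BL/6J. There were 3 replicates of each genotype, each a pool of 3 to 5 retinas whose cells were enriched with CD31 beads and processed by Drop-seq, which counts the 3′ ends of mRNAs with unique molecular identifiers (UMIs). No room-air retinas were among the groups. The p-values below measure the spread between these pools.

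Quiescent endothelium of an established vessel is divided by position: arterial cells carry Notch, Sox17 and connexin programs, venous cells depend on the transcription factor Nr2f2, and capillary cells of the retina express the transporters of the blood-retina barrier, which Norrin and Wnt signalling through Lef1 maintains. Tip cells lead new sprouts and Proliferative cells feed the stalk behind them. A class of ECs that is neither can hold arterial, venous and capillary cells at once.

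Structural ECs were shallow. The median cell had 491 UMIs, where the median Tip EC had 1007 and the median Proliferative EC 963.5, and 1688 (50.6%) of them had under 500 UMIs. The 6 libraries held 186 to 1358 Structural ECs and 246958 to 1145608 UMIs in their summed counts. eNOS-/- replicate 2 gave 1358 of the cells, with a median of 308.5 UMIs and 4.04% of UMIs from the mitochondrial genome, against 487.5 to 906 UMIs and 1.32% to 3.03% in the other libraries. The annotation's own cell cycle calls placed 1884 of the cells in G1, 844 in S and 607 in G2/M phase. A single cell barcode occurred in the Structural ECs of more than 1 library. Within a library, cells whose barcodes were alike but for the last base were grouped as a barcode family. Keeping the deepest annotated cell of each family left 2554 of the 3335 Structural ECs. Whether the cells of a family were distinct cells was not tested.

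The endothelial label was checked with Pecam1, the CD31 adhesion molecule used for the enrichment, and Cldn5, the main claudin of endothelial tight junctions. Thinned to 500 UMIs per cell, with shallower cells left out, 44.2% of Structural ECs had a Pecam1 UMI and 50.2% a Cldn5 UMI (47.8% and 47.1% without thinning, over all cells). Rod photoreceptors of the same libraries, which should lack both, had them in 22.8% and 4.28% of thinned cells (19.6% and 3.52% unthinned), so a Pecam1 UMI alone marked an EC weakly. Levels below are UMIs per 1000000 UMIs of the summed cells of a library (CPM), given as mean ± SD over 6 libraries unless stated. Pecam1 stood at 1118 ± 188 CPM in Structural, 1741 ± 312 in Tip and 1126 ± 129 CPM in Proliferative ECs, and Cldn5 at 1666 ± 450, 1571 ± 539 and 1417 ± 459 CPM. All 12 genes of a list of general endothelial markers were detected, and their summed level was 9492 ± 746 CPM in Structural ECs.

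Some libraries stood apart in the genes of other cells that they carried among Structural ECs. In eNOS-/- replicate 3, 45 of 186 cells (24.2%) had UMIs of at least 2 of 11 mural cell genes, those of pericytes and smooth muscle, against at most 1.64% in any other library. The summed mural level was 4567 CPM there and 42.4 to 193 CPM elsewhere. In eNOS-/- replicate 2, 243 of 1358 cells (17.9%) had at least 2 of 11 rod genes, against at most 4.75% elsewhere, and the summed rod level was 1142 CPM against 52.3 to 339 CPM. Hemoglobin and heme synthesis genes of red cells summed to 34.9 CPM in eNOS+/+ replicate 1, 22522 CPM in eNOS+/+ replicate 2 and 4432 to 8916 CPM in the other libraries. Microglial genes were at 478 CPM in eNOS+/+ replicate 2 and at 48.9 to 104 CPM elsewhere. B cell genes summed to 54.2 to 324 CPM in eNOS+/+ and 303 to 368 CPM in eNOS-/- libraries, so the genotypes overlapped by eNOS+/+ replicate 1. Müller glia and astrocyte genes (1926.5 to 2908 CPM) and interneuron genes (508 to 769 CPM) spread less. No gene of these 7 lists was at 0 over all libraries.

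**Figure D1:**
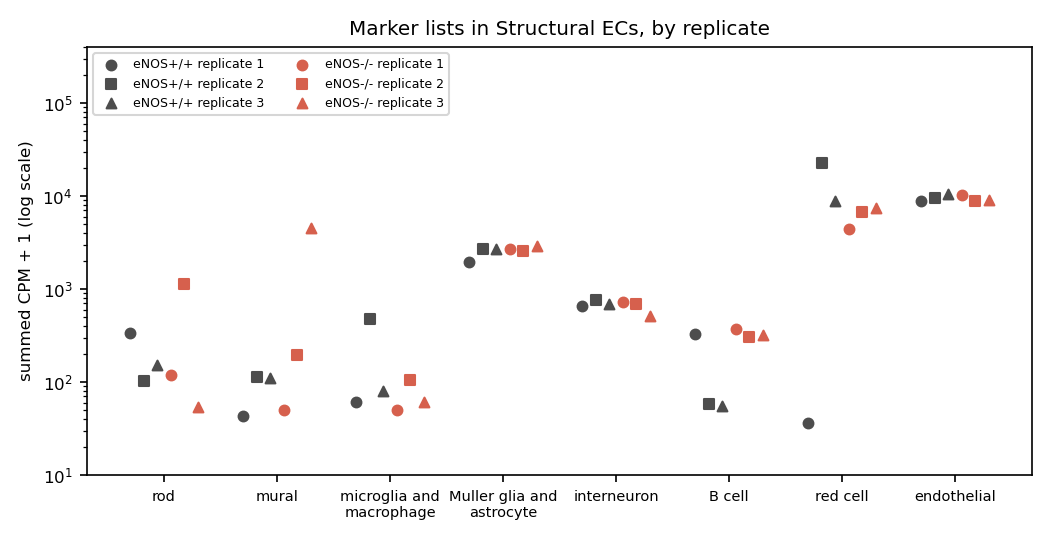
Summed level (CPM + 1, log axis) of marker genes of 7 other cell types and of endothelium in the Structural ECs of each library, grey for eNOS+/+ and red for eNOS-/-, with a symbol for each replicate number. eNOS-/- replicate 3 stands apart for mural genes (4567 CPM), eNOS-/- replicate 2 for rod genes (1142 CPM), and eNOS+/+ replicate 1 is the lowest for red cell genes (34.9 CPM).

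Summed over all their cells, Structural ECs had more of the transcripts for arterial connexin 37 (Gja4), some barrier transporters and the water channel Aqp1 than Tip and Proliferative ECs. They had less of the tip cell peptides. Gja4 was no longer highest in every library when only cells with at least 500 UMIs were summed, or when cells with genes of other cells were left out. Of 7673 genes with at least 20 CPM in some subtype, 128 (1.67%) were highest in Structural ECs in 6 of 6 libraries and 44 (0.573%) were lowest in 6 of 6. The subtypes had been clustered from these same UMIs, so these differences are a description and carry no test. Of the 128 genes, 93 were also highest when only cells with at least 500 UMIs were summed (115 genes in all), and 46 when cells with UMIs of at least 2 genes of any list of other cells were left out of every subtype (106 genes in all). That second setting removed 37.5% of Structural ECs. Its largest part was the Müller glia and astrocyte list, of which at least 2 genes were seen in 17.9% to 32.8% of the Structural ECs of a library and which includes Vim, Glul and Apoe, genes that endothelium also expresses.

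Aqp1 led the ranking by the least favourable library. Its level in Structural ECs was 269.5, 275 and 118 CPM in eNOS+/+ and 354, 133 and 123 CPM in eNOS-/- replicates 1 to 3, against 2.89 ± 6.42 CPM in Tip and 7.55 ± 6.14 CPM in Proliferative ECs. The homeobox gene Six3, a regulator of eye and forebrain development, followed the same order with 119 ± 61.9, 1.94 ± 3.02 and 6.08 ± 6.44 CPM. Its divergent neighbour Six3os1 stood at 163 ± 86.5 CPM in Structural ECs, and whether the counting kept reads of the pair apart by strand is not given in the sources used here. All 6 libraries held these genes at higher levels in Structural ECs than in either other subtype, although the Structural levels themselves spread several-fold.

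Secreted and adhesion genes followed. Stc1, which encodes the hormone stanniocalcin, stood at 132 ± 56.5 CPM in Structural against 27.2 and 23.4 CPM in Tip and Proliferative ECs, and Dkk2, a secreted Wnt modulator, at 82.2 ± 46.1 against 14.9 and 19.6 CPM. Sele, the leukocyte adhesion molecule E-selectin, stood at 96.2 ± 37.4 against 10.6 and 34.7 CPM. The ranking also named Sp100, a nuclear body protein, and 3 genes of blood cells, Igkc, Cd74 and Hbb-bt, whose UMIs are described with the clusters. The 8 genes at the other end included Odc1 and Kpnb1. Odc1, the first enzyme of polyamine synthesis, stood at 168 ± 114 CPM in Structural against 526 and 262 CPM in Tip and Proliferative ECs, and Kpnb1, an importin, at 127 ± 39.2 against 163 and 268 CPM. The others were Kdelr2 and Fkbp10, which encode proteins of the endoplasmic reticulum, and Ppa1, Gm6169, Tceal9 and Klhl4.

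**Figure D2:**
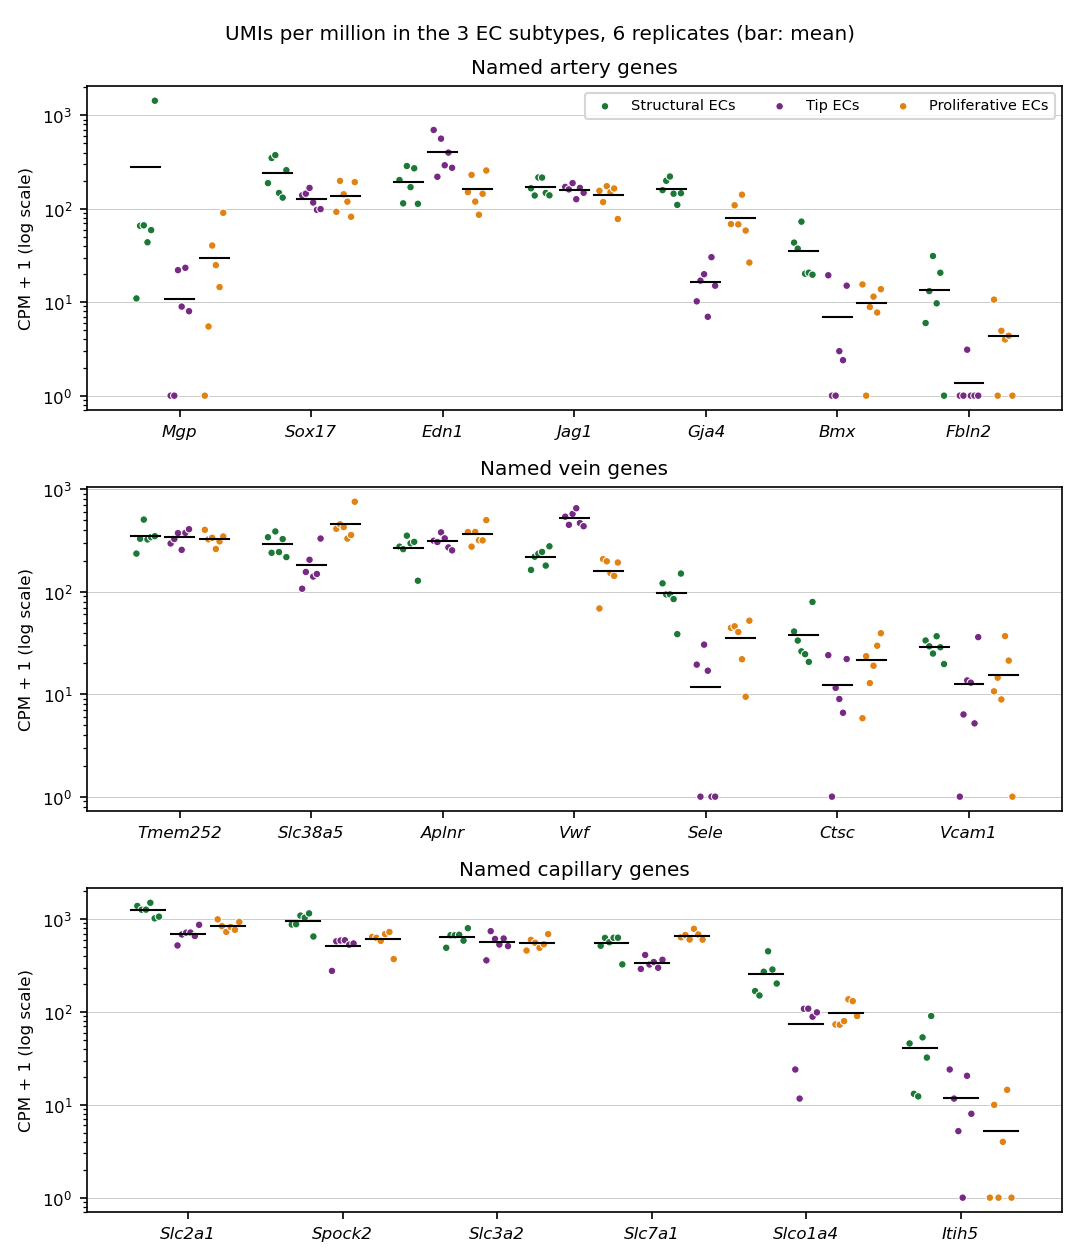
Levels (CPM + 1, log axis) of named artery, vein and capillary genes in Structural (green), Tip (purple) and Proliferative ECs (orange), 1 point per library, with a bar at the mean of the 6. Gja4 (162 CPM on average in Structural ECs) and Slc2a1 (1252 CPM) are above both other subtypes in every library, whereas the vein genes Slc38a5, Aplnr and Tmem252 overlap between subtypes and 1 library lifts the mean of Mgp.

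Among artery genes, 4 of 15 counted were highest in Structural ECs in 6 of 6 libraries, against 1.67% of all genes counted. Gja4, which encodes connexin 37 (4:127311421-127314039, GRCm38), stood at 157, 198 and 220.4 CPM in the eNOS+/+ and 144, 109 and 146 CPM in the eNOS-/- libraries, a mean 10.4 times that of Tip ECs and 2.09 times that of Proliferative ECs. Bmx, a tyrosine kinase of arterial endothelium (X:164192842-164258193), stood at 34.7 ± 20.8 CPM against 5.98 and 8.73 CPM. Sox17, the arterial transcription factor, was at 241 ± 103 CPM against 126 and 137 CPM. Mgp, an inhibitor of calcification in the vessel wall, was highest in Structural ECs too, but its mean of 279 CPM rested on eNOS-/- replicate 3, at 1431 CPM against 9.98 to 65.5 CPM in the others, and 371 of that library's 383 Mgp UMIs lay in cells with at least 2 mural genes. Not every artery gene followed: Edn1 (endothelin 1) was at 192 ± 74.96 CPM in Structural and 407 ± 187 CPM in Tip ECs, and Dll4, the Notch ligand of arteries and tip cells, at 60.6 ± 9.20 and 95.6 ± 27.0 CPM. The summed artery level was 1768 ± 623 CPM in Structural, 1183 ± 228 in Tip and 1033 ± 119 CPM in Proliferative ECs. The artery count depended on the cells summed: it was 2 of 15 with cells of at least 500 UMIs (Mgp and Sox17) and 1 of 14 without cells with other-cell genes (Sox17).

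Vein genes did not set Structural ECs apart by their summed level. It was 1798 ± 196 CPM in Structural, 1857 ± 188 in Tip and 1867 ± 262 CPM in Proliferative ECs. Of 14 counted, 2 were highest in 6 of 6 libraries, among them Sele, against 1.67% of all genes counted. Slc38a5, a glutamine transporter of retinal veins and capillaries (X:8271133-8280179), was at 292 ± 68.2 CPM, between Tip ECs (180.4 ± 79.6 CPM) and Proliferative ECs (455 ± 154 CPM). Nr2f2 stood at 117 ± 49.1 CPM in Structural, 65.8 ± 48.4 in Tip and 145 ± 27.8 CPM in Proliferative ECs. Aplnr, the apelin receptor, stood at 269 CPM in Structural against 308 and 362 CPM, and Tmem252 at 346, 338 and 329 CPM. Vwf, von Willebrand factor, stood at 219 ± 42.4 CPM in Structural and 159 ± 52.0 CPM in Proliferative ECs and was highest in Tip ECs, at 519 ± 84.8 CPM.

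Capillary and barrier genes were the list with the largest number of members highest in Structural ECs, 6 of 16, against 1.67% of all genes counted. Slc2a1, the glucose transporter GLUT1 (4:119108711-119137983), was at 1390, 1263 and 1267 CPM in eNOS+/+ and 1504, 1020.4 and 1065 CPM in eNOS-/- libraries, 1.80 times the mean of Tip ECs (694 ± 112 CPM) and 1.48 times that of Proliferative ECs (848 ± 100.2 CPM). No Structural library reached down to the highest Tip or Proliferative one. The organic anion transporter Slco1a4 stood at 254 ± 110.5 CPM against 72.5 and 96.5 CPM, and the proteoglycan Spock2 at 949 ± 184 against 519 and 608 CPM. The drug efflux pumps Abcb1a (542 ± 132 CPM against 268 and 371) and Abcg2 (410.3 ± 59.7 CPM against 271 and 328) and the matrix protein Itih5 (40.3 ± 29.4 CPM against 10.8 and 4.25) were the others. The cationic amino acid transporter Slc7a1 stood at 549 CPM in Structural, 339 in Tip and 665 CPM in Proliferative ECs. The summed capillary level was 7306 ± 657 CPM in Structural, 5139 ± 799 in Tip and 5869 ± 209 CPM in Proliferative ECs, and without cells with other-cell genes the count was 4 of 16.

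The remaining lists gave smaller counts, to be read beside the 1.67% of all genes counted. Of 14 Norrin and Wnt genes, 3 were highest in Structural ECs in 6 of 6 libraries: Sox17, Lef1 (296 ± 43.6 CPM against 190.4 and 189) and the feedback inhibitor Nkd1 (69.0 ± 18.8 CPM against 13.7 and 47.8). Nkd1 was not among them in cells with at least 500 UMIs, without cells with other-cell genes or without clusters 1, 19 and 22, which each left Lef1 and Sox17. The Norrin receptor Fzd4 stood at 63.4 CPM in Structural, 105 in Tip and 63.7 CPM in Proliferative ECs. Of 14 junction genes, Jam2 (113 ± 25.05 CPM) and Lsr, of tricellular junctions (108 ± 31.4 CPM), were highest, while the VE-cadherin gene Cdh5 stood at 678, 674 and 608 CPM. Without cells with other-cell genes the junction count was 0 of 15. Of 14 BMP and TGF-β genes it was Id3, a BMP target, at 923 ± 99.4 CPM against 398 and 775 CPM. Immediate early genes contributed 3 of 12, Fos (714 ± 234 CPM against 389 and 345), Ier3 and Zfp36, and none of the 12 without cells with other-cell genes. Plvap, the diaphragm protein of fenestrae and leaky vessels, stood at 85.4 ± 49.7 CPM against 48.9 and 32.8 CPM. None of 9 Notch genes counted was highest in every library.

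Tip cell genes summed to 5702 ± 401 CPM in Structural ECs, 12100 ± 1820.3 in Tip and 5451 ± 396 CPM in Proliferative ECs, and the peptides Adm (46.9 CPM against 358 and 64.4) and Apln (147 CPM against 947 and 225) were lowest in Structural ECs in 6 of 6 libraries. Cell cycle genes summed to 1255 ± 455 CPM in Structural, 510 ± 162 in Tip and 5575 ± 1260.5 CPM in Proliferative ECs. At 500 UMIs per cell, 53.5% of Structural ECs had UMIs of at least 2 tip genes, against 90.8% of Tip, 58.4% of Proliferative ECs and 6.18% of rods. At least 2 cell cycle genes were seen in 9.29% of Structural, 2.75% of Tip and 65.6% of Proliferative ECs and 2.38% of rods. Structural ECs were thus close to Proliferative ECs for the tip list as a whole and between Tip and Proliferative ECs for cell cycle genes. The tip list includes 2 collagen genes of high level. In Structural ECs, Col4a1 averaged 2095 CPM in eNOS+/+ and 2337.5 CPM in eNOS-/- libraries, and Col4a2 1177 and 1098 CPM.

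Within Structural ECs, the levels of arterial, barrier and Aqp1-related genes differed between the clusters of the authors' own clustering of all integrated cells. Clusters are given by number and leading genes, and since they were formed from these UMIs no test is made between them. Gja4 and Bmx concentrated in clusters 11 (270 cells) and 15 (278 cells), which held 83.4% of the 613 Gja4 UMIs and 80.3% of the 132 Bmx UMIs of Structural ECs. Gja4 reached 542 ± 202 CPM in cluster 11 against 103 ± 32.5 CPM in the other Structural ECs, and 559 ± 239 CPM in cluster 15 against 118 ± 28.4 CPM, higher in the cluster in 6 of 6 libraries each time.

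The artery-rich clusters differed from each other in their leading genes. Cluster 11 was led by Stmn2, a microtubule regulator (381 ± 298 CPM against 16.3 ± 7.08), and Igfbp3, an IGF binding protein of the tip list (2288 ± 574 against 309 ± 72.9 CPM). Dkk2 (339 ± 217 against 43.4 ± 16.9 CPM) and Sele followed, with Npr3, the natriuretic peptide clearance receptor, and Fos (2335 ± 1112 against 507 ± 225 CPM) further down. Among clusters with at least 100 Structural ECs, the summed tip level was highest in cluster 11, at 8310 CPM against 5986 CPM in cluster 15. Cluster 15 was led by the chemokine gene Cxcl12 (1554 ± 551 against 203 ± 18.1 CPM), glutamine synthetase Glul (1431 ± 562 against 359 ± 81.2 CPM) and the taurine transporter Slc6a6 (1766 ± 404 against 573 ± 134 CPM). Summed artery genes reached 3625 CPM in cluster 11 and 2595 CPM in cluster 15, and 637 to 1325 CPM in clusters 1, 3, 6, 8, 10, 14 and 19. They were at 247 CPM in cluster 22, and at 2313, 1670 and 1507 CPM in the smaller clusters 2, 5 and 9. In cluster 2, Mgp alone stood at 1810 CPM. In cluster 15 the barrier genes were high as well, with a capillary sum of 9569 CPM and 729 CPM of Slc16a1, the lactate transporter MCT1, against 95.4 CPM in cluster 11. Cluster 11 in turn held 184 of the 857 Aqp1 UMIs of Structural ECs, at 351 CPM.

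Cluster 14 held the Aqp1 cells. Its 322 cells made up 98.2% of all ECs in that cluster of the annotation, and 72.6% of the 857 Aqp1 UMIs of Structural ECs were in it. Aqp1 (6:55336432-55348555) stood there at 849, 1231 and 1267 CPM in the eNOS+/+ and at 1212, 756 and 1288 CPM in the eNOS-/- libraries, against 62.7 ± 56.0 CPM in the other Structural ECs. Six3 (605 ± 152 against 37.2 ± 31.2 CPM), Six3os1 (782 ± 258 against 59.2 ± 41.3 CPM) and Col18a1, the collagen that yields endostatin (1953 ± 242 against 443 ± 155 CPM), were high in 6 of 6 libraries. So was Slc2a1, with 2727 ± 225 CPM against 1004 ± 157 CPM. Plvap was highest in this cluster, at 259 ± 166 against 55.9 ± 34.1 CPM, and the tip and sprouting marker Esm1 was among its leading genes at 223 CPM.

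Some transporters were high and others low in the Aqp1-rich cluster. The efflux pumps Abcb1a (959 CPM) and Abcg2 (611 CPM) were higher there than in any other cluster of Structural ECs measured, and Slco1a4 stood at 554 ± 253 against 207 ± 83.2 CPM in the other Structural ECs, higher in the cluster in 5 of 6 libraries. Over the summed cells of cluster 14 Slc16a1 and Slc38a5 were each at 5.22 CPM, against 1096 CPM of Slc16a1 in cluster 6 and 723 CPM of Slc38a5 in cluster 10, and Nr2f2 was at 19.1 CPM against 168 CPM in cluster 10. Its share of the Structural ECs of a library was 14.96%, 16.8% and 9.60% in eNOS+/+ and 13.5%, 5.89% and 6.45% in eNOS-/- replicates 1 to 3. The genotypes overlapped in that share, with eNOS-/- replicate 1 above eNOS+/+ replicate 3.

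Barrier transporters with venous genes marked the other deep clusters. Cluster 6 (402 cells) was led by Slc16a1 (1055 ± 384 against 312 ± 150 CPM), the thyroid hormone transporter Slco1c1 (841 ± 164 against 282 ± 75.7 CPM), the lipid carrier Apod, the transferrin receptor Tfrc (585 ± 161 against 208 ± 68.7 CPM) and Spock2 (1847 ± 184 against 730 ± 184 CPM). Its summed capillary level, 10374 CPM, was the highest of the 10 clusters with at least 100 Structural ECs. Cluster 10 (238 cells) was led by Slc38a5 (754 ± 214 against 240 ± 61.7 CPM) and also held Aplnr at 503 ± 161 against 241 ± 68.4 CPM, each higher there in 6 of 6 libraries. Nr2f2 was higher in cluster 10 than in the other Structural ECs in 5 of 6 libraries, and the cluster's artery sum, 637 CPM, was the lowest of clusters 6, 8, 10, 11, 14 and 15. Not every gene of the vein list followed. Over the summed cells, Sele stood at 11.7 CPM in cluster 10 and 326 CPM in the artery-rich cluster 11. Vcam1, also on the vein list, stood at 27.4 and 76.3 CPM.

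**Figure D3:**
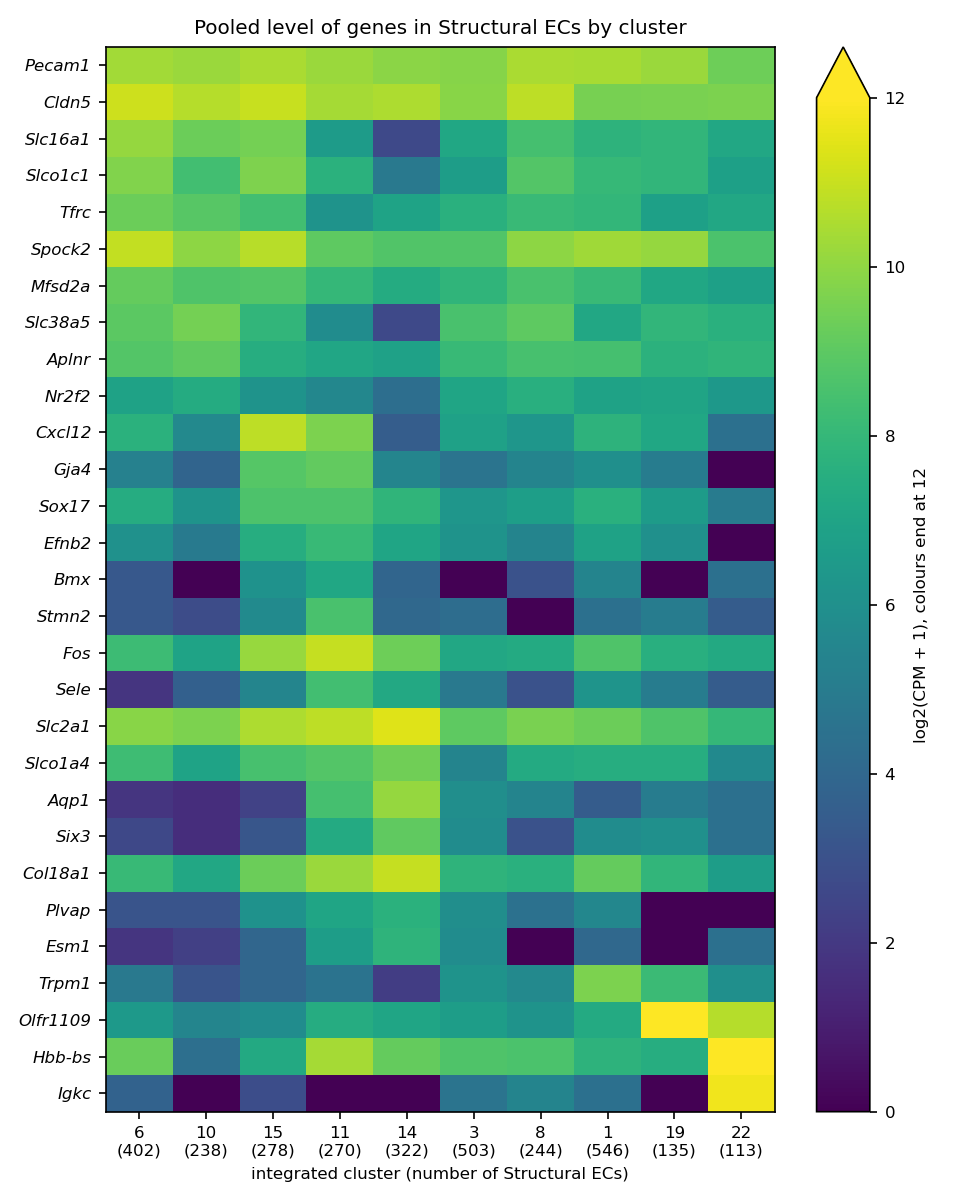
Pooled level, as log2(CPM + 1) with colours ending at 12, of 29 genes in the Structural ECs of the 10 clusters with at least 100 of them, the number of cells under each cluster. Gja4 and Bmx are brightest in clusters 11 and 15, Aqp1 and Six3 in cluster 14 (1083 CPM of Aqp1), Slc16a1 in cluster 6, Slc38a5 in cluster 10, and Hbb-bs and Igkc in cluster 22.

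The rest of the larger clusters were shallow or carried genes of other cells. Cluster 1 (546 cells, 378 of them from eNOS-/- replicate 2) had a median of 267 UMIs and 6.60% mitochondrial UMIs, and it was led by genes of bipolar cells and rods such as Trpm1 and Rpgrip1. Its Pecam1 level was 1384 ± 643 CPM against 1113 ± 186 CPM in the other Structural ECs, and its Cldn5 level 1103 ± 476 against 1697 ± 447 CPM. Clusters 3 (503 cells, median 266 UMIs) and 8 (244 cells, median 395.5 UMIs) had no gene of the artery, vein or capillary lists among their 15 leading genes, which included the rod gene Gngt1 in cluster 3 and the mural gene Higd1b in cluster 8. The 135 cells of cluster 19 came from the 5 libraries other than eNOS-/- replicate 3 and were led by the olfactory receptor gene Olfr1109, from 174 to 305820 CPM between libraries, and by the actin-binding gene Palld.

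Cluster 22 (113 cells) had few endothelial transcripts. In it, 72 of the cells had no Pecam1 or Cldn5 UMI, and hemoglobin and red cell genes took 225450 CPM of its UMIs. Igkc, the immunoglobulin kappa constant region, had 336 of its 369 UMIs there and Cd74, the invariant chain of antigen presentation, 315 of 356. Structural ECs held 68 cells with at least 2 of 10 B cell genes, 56 of them in cluster 22. Clusters 1, 19 and 22 were left out as an alternative chosen after seeing the data, and 145 genes were then highest in Structural ECs in 6 of 6 libraries, 104 of them among the 128, with artery genes at 3 of 15 (Gja4, Mgp and Sox17) and capillary genes at the same 6 of 16.

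Cells with artery or vein genes were counted at equal depth, as cells thinned to 500 UMIs with UMIs of at least 2 genes of a list. The names artery cell and vein cell stand for that count alone, and the vessel a cell came from was not tested. Of 1647 Structural ECs deep enough, 255 (15.5%) had at least 2 artery genes and 347 (21.1%) at least 2 vein genes. The artery share was 9.07% in Tip ECs, 8.18% in Proliferative ECs and 0.713% in rods, and the vein share 19.1%, 18.7% and 1.19%. Both shares in Structural ECs were thus above the level in rods, which should lack these genes. Artery cells made up 43.8% of cluster 11, 35.5% of cluster 15 and 2.62% of cluster 10, while vein cells made up 32.5% of cluster 10, 27.2% of cluster 6 and 11.4% of cluster 14. The classes were not exclusive: 44 cells had both, and 17.3% of artery cells had at least 2 vein genes against 21.8% of the other cells.

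Neither share differed between genotypes beyond the spread of the libraries. The artery share was 11.1%, 16.4% and 22.5% in eNOS+/+ (16.7% ± 5.70, SD, n = 3) and 12.4%, 12.4% and 19.4% in eNOS-/- replicates 1 to 3 (14.7% ± 4.04), with p = 0.7 in a two-sided exact permutation test. The vein share was 17.0%, 17.9% and 28.6% in eNOS+/+ (21.2% ± 6.48) and 18.4%, 19.4% and 20.4% in eNOS-/- (19.4% ± 0.978), with p = 1 in the same exact permutation test. eNOS+/+ replicate 3 had the highest share of both, and with 3 libraries against 3 that test cannot go below p = 0.1. The Wilson 95% interval of a single library's artery share was 6.85% to 17.5% for eNOS+/+ replicate 1. For eNOS+/+ replicate 3 it was 18.6% to 26.9%. These intervals cover counting error only and take each cell as distinct. Without eNOS+/+ replicate 3 the eNOS-/- mean was higher by 0.979 percentage points for artery and 1.95 for vein genes.

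**Figure D4:**
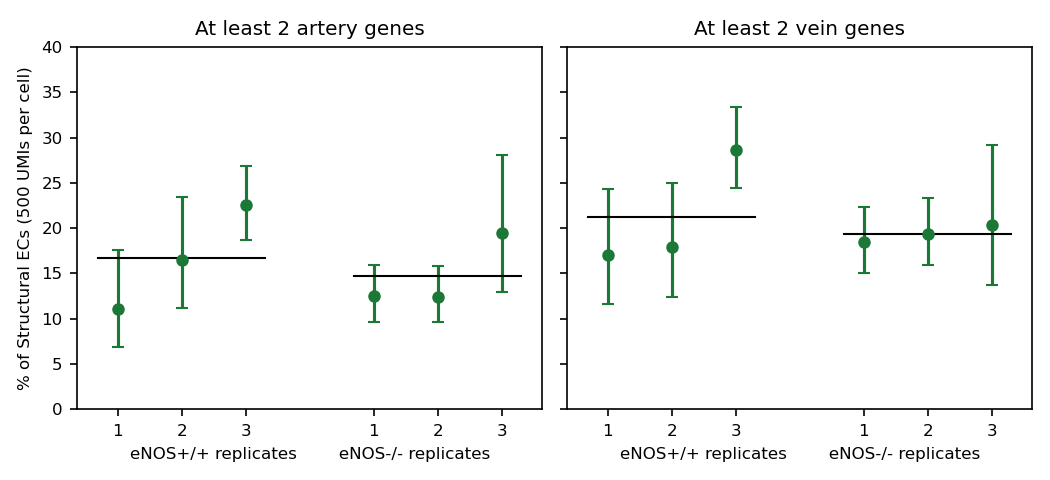
Share (%) of Structural ECs with UMIs of at least 2 artery or at least 2 vein genes after thinning each cell to 500 UMIs, 1 point per library with its Wilson 95% interval and lines for the genotype means. The 6 libraries lie between 11.1% and 22.5% for artery genes and between 17.0% and 28.6% for vein genes, and the genotypes overlap in both.

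The targeted gene was looked at before any other genotype difference. Nos3 (5:24364810-24384474) stood at 20.0, 48.6 and 25.2 CPM in the eNOS+/+ and at 22.7, 17.0 and 37.4 CPM in the eNOS-/- Structural ECs, which overlapped (log2 difference -0.35 ± 0.45 SE, adjusted p = 0.973 in edgeR's quasi-likelihood test). Which part of Nos3 the knockout allele lacks is not given in the sources used here, and a 3′ UMI outside that part does not check the labels. In thinned cells 0.789% of Structural ECs and 0.475% of rods had a Nos3 UMI.

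Between genotypes, few genes of Structural ECs passed the test. Of 7577 genes tested on the summed counts, 1 was higher in eNOS-/- (0.0132%) and 1 lower (0.0132%) at a Benjamini-Hochberg adjusted p under 0.05 in edgeR's quasi-likelihood test. At an unadjusted p under 0.05, 174 genes were higher (2.3%) and 244 lower (3.22%), and for 435 (5.74%) and 363 (4.79%) every eNOS-/- library lay above or below every eNOS+/+ library. The median log2 difference of all tested genes was 0.01. The lower gene was the uncharacterised transcript AI506816, at 92.3, 68.8 and 71.8 CPM in eNOS+/+ and 4.36, 17.9 and 11.2 CPM in eNOS-/- libraries (log2 difference -2.81 ± 0.43 SE, adjusted p = 0.0344 in edgeR). Its 139 UMIs were spread over the Structural clusters, with 3 of them in cluster 22, but the adjusted p went to 0.0551 without cluster 22 and to 0.186, 0.397, 0.300 and 0.175 in edgeR without eNOS+/+ replicates 1, 2 and 3 and without eNOS-/- replicate 1.

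The higher gene was Igkc, at 42.4, 24.3 and 22.7 CPM in eNOS+/+ and 144, 109 and 153 CPM in eNOS-/- libraries (log2 difference 2.16 ± 0.33 SE, adjusted p = 0.0344 in edgeR). Of its 369 UMIs, 366 lay in the 68 cells with at least 2 B cell genes, so the gene had almost no UMIs in the other Structural ECs. Igkc is itself on the B cell list, so this concentration was in part fixed by the definition. The 68 cells were 1.46%, 0.820% and 1.16% of the eNOS+/+ and 3.14%, 2.14% and 2.69% of the eNOS-/- Structural ECs, without overlap. The summed B cell level did overlap, with 324 CPM in eNOS+/+ replicate 1 against 303 to 368 CPM in eNOS-/- libraries. Igkc was not called without eNOS+/+ replicates 1, 2 or 3 or eNOS-/- replicate 1, with adjusted p of 0.0707, 0.417, 0.318 and 0.175 in edgeR and log2 differences of 2.49, 2.08, 1.94 and 2.11. Ly6d, a surface antigen of early B cells among others, had the next smallest p upward and 101 of its 109 UMIs in cluster 22; its values were 0, 12.1 and 0 CPM in eNOS+/+ and 40.2, 33.1 and 86.0 CPM in eNOS-/- libraries (adjusted p = 0.275 in edgeR, not called).

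Plvap had the next smallest p downward. It stood at 140, 150 and 89.4 CPM in eNOS+/+ and 50.6, 34.0 and 48.6 CPM in eNOS-/- libraries, groups that did not overlap, with a log2 difference of -1.51 ± 0.30 SE and an adjusted p of 0.275 in edgeR, so it was not called. Within cluster 14, where 42.1% of its 273 UMIs lay, the values were 469, 271 and 413 CPM in eNOS+/+ and 97.5, 52.2 and 249 CPM in eNOS-/- libraries. The share of cells in cluster 14 moved in part with these values, and its part in the difference was not tested.

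Of the other genes with the smallest p, none was called by edgeR's quasi-likelihood test. Selenop, the selenium carrier of plasma, stood at 64.9, 44.5 and 69.3 CPM in eNOS+/+ and 232, 299 and 82.2 CPM in eNOS-/- libraries (log2 difference 1.76 ± 0.37 SE, adjusted p = 0.291 in edgeR). DESeq2 called Selenop (adjusted p = 0.0451), and so did edgeR without eNOS-/- replicate 3 (adjusted p = 0.00627) and with no filter on low counts (adjusted p = 5.78e-07). Acadsb, a mitochondrial acyl-CoA dehydrogenase, averaged 31.3 ± 4.35 against 84.0 ± 24.3 CPM (n = 3 each). In the other direction were Btg3, an antiproliferative gene (118 ± 18.6 CPM in eNOS+/+ and 43.0 ± 21.4 in eNOS-/-), the heat shock gene Hspa1a (120.3 ± 51.1 and 40.6 ± 14.1 CPM) and the deubiquitinase gene Otulin (60.4 ± 32.9 and 15.1 ± 6.36 CPM). Btg3 was called in edgeR without eNOS-/- replicate 3 (adjusted p = 0.0120) and with no filter on low counts (adjusted p = 0.000287). The edgeR fit with no filter also called Acadsb (adjusted p = 0.00795), Hspa1a (adjusted p = 0.000322) and Otulin (adjusted p = 0.00213), so it did not set Selenop and Btg3 apart. Selenop, Acadsb, Btg3, Hspa1a and Otulin did not overlap between genotypes, but they were picked by their p on these same sums. Of all tested genes, 5.74% lay above and 4.79% below eNOS+/+ in every eNOS-/- library. Rgs5, a pericyte gene, had a mean of 1060 CPM in eNOS-/- and 45.5 CPM in eNOS+/+, but the groups overlapped. eNOS-/- replicate 3 alone had 3012 CPM, with 731 of its 806 Rgs5 UMIs in cells with at least 2 mural genes. With no filter on low counts edgeR called Rgs5 all the same (adjusted p = 8.48e-42).

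**Figure D5:**
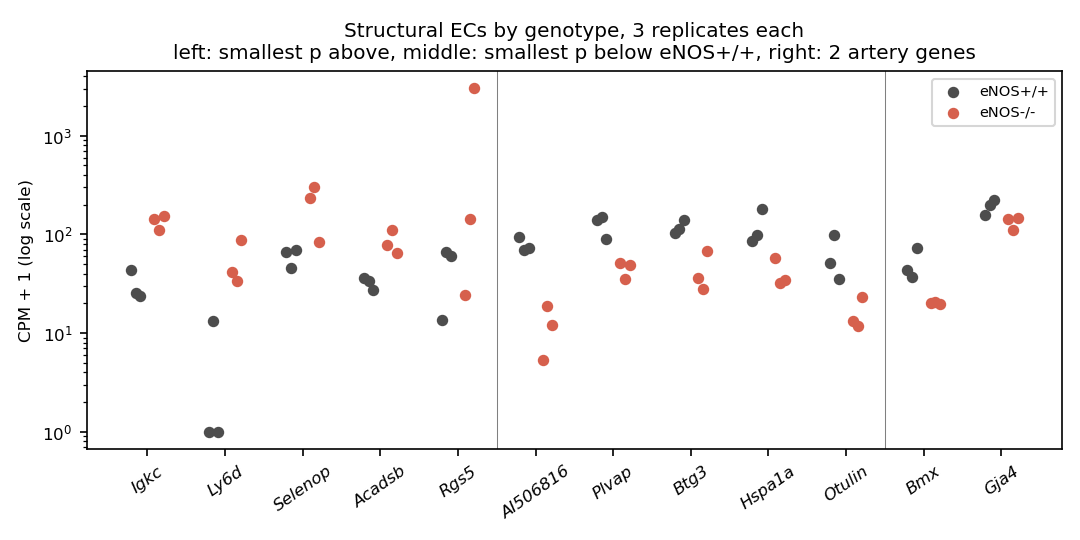
Levels (CPM + 1, log axis) in eNOS+/+ (grey) and eNOS-/- (red) Structural ECs, 1 point per library, of the 5 genes with the smallest p in each direction and of the artery genes Bmx and Gja4. AI506816 and Igkc are the called genes (adjusted p = 0.0344 each in edgeR). Plvap, Bmx and Gja4 lie lower in all 3 eNOS-/- libraries without passing the adjusted threshold, and Rgs5 is lifted by eNOS-/- replicate 3.

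None of the artery, vein or capillary genes was called between genotypes. The 15 artery genes tested had a median log2 difference of -0.23, with 3 lower and 1 higher at an unadjusted p under 0.05. Of all tested genes, 3.22% were lower and 2.3% higher at that threshold. Bmx stood at 42.4, 36.4 and 71.8 CPM in eNOS+/+ and 19.2, 19.7 and 18.7 CPM in eNOS-/- libraries (log2 difference -1.48 ± 0.37 SE, adjusted p = 0.659 in edgeR). Gja4, with 157, 198 and 220.4 against 144, 109 and 146 CPM, also lay lower in every eNOS-/- library (log2 difference -0.57 ± 0.24 SE, adjusted p = 0.868 in edgeR). Sox17 stood at 187, 348 and 374 against 147, 131 and 258 CPM, where the groups overlapped (log2 difference -0.84 ± 0.31 SE, adjusted p = 0.849 in edgeR), and Mgp had a log2 difference of 3.32 that rested on eNOS-/- replicate 3. Of the 15 genes, 10 had negative and 5 positive values.

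The 14 vein genes tested had a median log2 difference of -0.26. At an unadjusted p under 0.05, 3.22% of all tested genes were lower and 1 of these 14. That gene was Nr2f2, named after its values were seen, at 87.3, 186 and 154 CPM in eNOS+/+ and 63.7, 75.1 and 138 CPM in eNOS-/- libraries (adjusted p = 0.895 in edgeR). The vein genes of highest level, Tmem252, Slc38a5, Aplnr and Vwf, overlapped between genotypes. Slc38a5, for example, stood at 322 ± 75.5 CPM in eNOS+/+ and 262 ± 56.8 CPM in eNOS-/- libraries (n = 3 each).

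The 16 capillary genes had a median of 0.10, with 2 higher at an unadjusted p under 0.05, Slco1a4 (167, 150 and 271 CPM in eNOS+/+, 450.4, 286 and 202 CPM in eNOS-/- libraries) and Itih5 (22.8 ± 19.2 and 57.8 ± 29.6 CPM), both with overlapping groups. Of all tested genes, 2.3% were higher at that threshold. Slc2a1 stood at 1307 ± 72.0 CPM in eNOS+/+ and 1196 ± 267 CPM in eNOS-/- libraries (adjusted p = 0.974 in edgeR), and Spock2 at 951 ± 124 and 948 ± 264 CPM. Aqp1 stood at 221 ± 89.0 and 203 ± 130 CPM (adjusted p = 0.991 in edgeR). The 12 general endothelial genes had a median of -0.01, within a range from -0.34 to 0.24, and Cldn5 and Pecam1 were at its ends.

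No member of the other endothelial lists was called either. Of 16 tip cell genes, 3 were higher and 1 lower at an unadjusted p under 0.05, against 2.3% and 3.22% of all tested genes. The log2 differences of the tip list ran from -1.41 to 0.98, with 9 positive and 7 negative. Apln stood at 107, 60.7 and 126 CPM in eNOS+/+ and 172, 163 and 254 CPM in eNOS-/- libraries (log2 difference 0.89 ± 0.29 SE, adjusted p = 0.733 in edgeR), and Lama4, a laminin chain of vascular basement membrane, at 346 ± 42.2 and 584 ± 153 CPM, each without overlap. Of 14 junction genes, Lsr lay lower in every eNOS-/- library (132 ± 8.02 CPM in eNOS+/+, 83.6 ± 24.8 in eNOS-/-) and Jam2 higher (94.4 ± 9.98 and 132 ± 19.7 CPM). The list median was 0.04 for junction genes, -0.16 for Norrin and Wnt genes, -0.25 for Notch genes and -0.38 for cell cycle genes.

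Mitochondrially encoded genes had the largest number of members with a small p. Of the 15, 8 were lower in eNOS-/- at an unadjusted p under 0.05 and none higher, against 3.22% and 2.3% of all tested genes. The list median was -0.54, with no call after adjustment. These genes share the same genome, and whether they moved separately from each other was not tested. mt-Nd4, a complex I subunit, stood at 1220.3, 1203 and 1350.3 CPM in eNOS+/+ and 671, 772 and 718 CPM in eNOS-/- libraries (log2 difference -0.82 ± 0.22 SE, adjusted p = 0.690 in edgeR). The ribosomal RNA mt-Rnr2 had the opposite sign, at 6538, 9107 and 4240 CPM in eNOS+/+ and 9590.5, 18017 and 4556 CPM in eNOS-/- libraries. Summed over the list, the genotypes overlapped, from 19577 to 27657 CPM in eNOS+/+ and from 14653 to 30093 CPM in eNOS-/- libraries.

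Whether a genotype difference in Structural ECs differed from that in another subtype was tested as an interaction, with the library as a term of the fit. Of 7019 genes tested, 0 were called against Tip ECs and 0 against Proliferative ECs in edgeR's quasi-likelihood test, with 275 (3.92%) and 229 (3.26%) at an unadjusted p under 0.05. DESeq2 also called 0 in both, with 167 and 135 at an unadjusted p under 0.05. The smallest p against Tip ECs was that of Apln, whose log2 difference was larger in Structural than in Tip ECs by 0.92 ± 0.23 SE (adjusted p = 0.988 in edgeR). In Tip ECs Apln stood at 978 ± 18.5 CPM in eNOS+/+ and 916 ± 159 CPM in eNOS-/- libraries (n = 3 each). Against Proliferative ECs the smallest p belonged to Scai, a regulator of cell invasion, with a difference of -2.53 ± 0.72 SE (adjusted p = 1 in edgeR).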

How the data were processed

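UMI counts per gene and cell and a cell annotation had been deposited. Per the labels and the study's methods, the authors aligned reads with kb-python to GRCm38, merged libraries, integrated and clustered them in Seurat, named the ECs by sub-clustering the unintegrated data, and kept cells with at least 100 genes and at most 10% mitochondrial UMIs. The deposited annotation gives percent of mitochondrial UMIs per cell as made by the authors, and calls all 8944 cells singlets, so no doublet caller was run here. The EC total stated with the series is below the 5925 cells annotated as ECs, and which cells make up the difference is not given in the sources used here.

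Here, counts of Structural ECs were summed per library (mapped by genotype and replicate number) and tested with edgeR 4.0.16 in R 4.3.3 (filterByExpr, TMM scaling, quasi-likelihood test, Benjamini-Hochberg adjustment over all tested genes) in place of the study's model over cells, which are not replicates. The main fit had no replicate block. DESeq2 1.42.0, other filters, cell subsets and left-out libraries were the alternatives. Subtype levels are CPM of the sums, over genes with at least 20 CPM on average in a subtype. Shares used cells thinned once to 500 UMIs, or 300 as an alternative, in Python 3.11.15, with Wilson 95% intervals and two-sided exact permutation tests. Coordinates are from the GENCODE annotation of GRCm38.

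Genes named were Pecam1, Cldn5 and Nos3; called genes and the 5 smallest p each way; the 12 highest and 8 lowest Structural levels by the least favourable library (at least 50 CPM); the top 4 artery, vein and capillary genes by level and by ratio to the other subtypes; the top 2 of every other list by p and by level; the 2 highest genes of lists of other cells; and the 3 smallest p of each interaction. Others were named for their place in a list, or as leading or contrasting genes of a cluster, after their values were seen. Some genes that the rule names are not reported here. The members and lists were chosen with earlier results of these data known.

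Copies of 1 library were looked for by chi-square per gene between libraries of a genotype, and none was found (2.97 to 5.52). Same-numbered libraries deviated together with correlations of 0.133, -0.0761 and 0.0816, so the numbers were not taken to pair them. Tested on simulated data with the genotype comparison's 7577 genes, the fit recovered 35 of 200 genes changed by 1 and 173 of 200 changed by 2 on the log2 scale. It also called 7 unchanged genes in each of those runs, and made 1 call where none was changed. The interaction fit recovered 137 of 200 genes changed by 2 against Tip and 144 against Proliferative ECs, with 5 and 8 unchanged genes called. UMI counts cover counting error only. The deposited annotation's other columns were not used.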

Additional observations from a re-analysis of the deposited data

How the results depend on the processing

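Few genotype calls withstood other settings. The main count was 1 gene higher and 1 lower in eNOS-/- Structural ECs. Both counts were 0 with cells of at least 500 UMIs, without cells with B cell genes, with 1 cell per barcode family, and in 3 settings chosen after seeing the data (without cluster 22, without clusters 1, 19 and 22, and with clusters 6, 10, 11, 14 and 15 alone). Without cells with at least 2 mural genes, also added after seeing the data, 1 was higher and 2 lower. DESeq2 gave 2 higher and 1 lower, 1 fit over 18 sums gave 0 and 1, and no filter on low counts gave 40 and 34 and moved the median log2 difference of all genes to 0.18. Leaving out 1 library gave 0 to 2 higher and 0 to 26 lower genes, the 26 without eNOS-/- replicate 3. A fit with the replicate number as a block gave 5 higher and 6 lower, among them Plvap (adjusted p = 0.0324 in edgeR), Ly6d, Selenop, Btg3, Rgs5 and Mgp, although the numbers were not shown to pair the libraries. The cause of these changes was not tested. AI506816 lay between -3.68 and -2.28 on the log2 scale in every setting that fitted it.

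Interaction counts stayed at 0 except with no filter on low counts, with 5 genes against Tip and 1 against Proliferative ECs. The eNOS-/- minus eNOS+/+ artery share, -1.93 percentage points, reversed to 1.07 with all cells unthinned, 0.164 at 300 UMIs and 3.29 with at least 1 gene, and ranged from -4.72 to 0.979 over left-out libraries. The vein share, -1.78, reversed to 2.80 with at least 1 gene and ranged from -3.85 to 1.95. With the replicate block their exact permutation p was 0.5 and 1. Of 43 named genes under all settings, 753 values kept direction and side of the threshold, 17 lost and 20 gained a call, and Ier3 ranged from -0.94 to 0.000412 on the log2 scale over left-out libraries, reversed without eNOS+/+ replicate 3. Depth limits the rest: 50.6% of Structural ECs had under 500 UMIs.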

Other observations

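Of the 8944 annotated cells, 613 carried an original library name that differed from their replicate column, and the replicate column was used throughout. Within 5000000 bases of Nos3 on chromosome 5, a window chosen after values were seen, 30 tested genes had a median log2 difference between genotypes of 0.0074 in Structural ECs. At an unadjusted p under 0.05, AI506816 and Rheb, a GTPase of the mTOR pathway, were lower in eNOS-/- and Galnt11, a glycosyltransferase gene, was higher, and of these AI506816 alone was called (adjusted p = 0.0344 in edgeR, against 0.868 for each of the others).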
